A study of Mus musculus with 8 samples.

Results

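The cytosolic ribosomal protein genes encode the proteins that, with the ribosomal RNAs, build the small (40S) and large (60S) subunits of the ribosome in the cytoplasm. They were taken from the deposited expression table by symbol: protein-coding rows named as an RPS or RPL gene, with RPLP0, RPLP1, RPLP2 and RPSA, and with no gene of the Y chromosome. This gave 85 genes among the 58304 kept, 32 of the small subunit and 53 of the large subunit. No measured value entered this rule, although it was set with earlier results of these data known. The label held against the table's own annotation, since 84 of the 85 carried the term for a structural constituent of the ribosome, the exception being RPS25. FAU, which also encodes a ribosomal protein (fused to a ubiquitin-like part), and RACK1, a protein of the small subunit, lie outside the choice of symbols and are described separately.

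Both groups are labelled as skin from C57BL/6 mice, 6 to 8 weeks old, taken within 2 mm of wounds on day 6. They are 4 libraries of wounds given PBS and 4 of wounds given rFGF4, recombinant fibroblast growth factor 4, and no other allele or agent is named. The study compared gene expression between the 2 treatments. The table does not match the labelled species: all 58304 gene identifiers kept were human and 0 were mouse. Columns named C (control) and FGF4 were joined to the libraries by name and replicate number, so groups are called the libraries labelled PBS and rFGF4, and no value is attributed to mouse wounds. The labels do not say that the libraries came from separate animals, so p-values measure the spread between these libraries, which may be technical. The libraries held 62044121 to 73680756 counts. All 7 keratinocyte markers reached a mean of 1 FPKM or more, with a summed level of 9635 to 11265 CPM in the PBS and 9364 to 10253 CPM in the rFGF4 libraries. Of the 6 dermal fibroblast markers 0 were at that level, as were 0 of 4 melanocyte (TYR at 0), 0 of 3 erythrocyte and 0 of 3 muscle markers (MYH2 at 0), with 1 of 5 leukocyte and 1 of 4 endothelial markers. Summed fibroblast markers stood at 8.13 to 9.06 CPM in PBS and at 4.88 to 5.37 CPM in rFGF4 libraries, and endothelial markers at 16.7 to 28.5 and 28.4 to 41.6 CPM. The defining markers of dermal fibroblasts were thus near 0 in libraries labelled as skin; the part of these shifts in the results was not tested.

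Ribosomal proteins are needed in matched amounts, and their messenger RNAs are among the most abundant in growing cells. Most of these messenger RNAs begin with a 5′ terminal oligopyrimidine (TOP) tract, through which the growth-sensing kinase complex mTORC1 and the RNA-binding protein LARP1 control their translation and stability. RNA-seq measures the level of these messenger RNAs and not their translation. Growth factor receptors signal to this machinery through the mTORC1 and ERK pathways, and RPS6 is phosphorylated by kinases of both.

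Levels within the set covered a wide range. Levels between genes are compared here in FPKM, the authors' value per length. RPL7A was the highest at a mean of 1297 FPKM over the 8 libraries (1199 to 1524), followed by RPL41 at 1181, RPL8 at 1123, RPL19 at 940, RPS2 at 871 and RPS18 at 772 FPKM. The median member stood at 180 FPKM. Of the 85 members, 64 had a mean of at least 100 FPKM, a level reached by 326 genes of the table, and 27 were among its 100 highest genes. The set held 7.44 ± 0.34% of all counts in the PBS libraries and 7.45 ± 0.469% in the rFGF4 libraries (mean ± SD, n = 4). The small subunit held 2.56 ± 0.136% and 2.52 ± 0.138%, and the large subunit 4.87 ± 0.206% and 4.93 ± 0.337%. These shares overlapped between the groups. Outside the second copies described below, the lowest members in FPKM were RPS29 at 13.3, RPL14 at 35.7 and RPS28 at 52.7. This order depends on the length by which counts were divided. In mean CPM of the PBS libraries, not divided by length, RPS29 stood at 159, RPL14 at 349 and RPS28 at 131. RPS15, at 167 CPM by the same measure, lay below RPL14. The 85 genes lay on 21 chromosomes, with 12 of them on chromosome 19, 9 on chromosome 3 and 4 on the X chromosome (RPS4X, RPL10, RPL36A and RPL39).

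**Figure D1:**
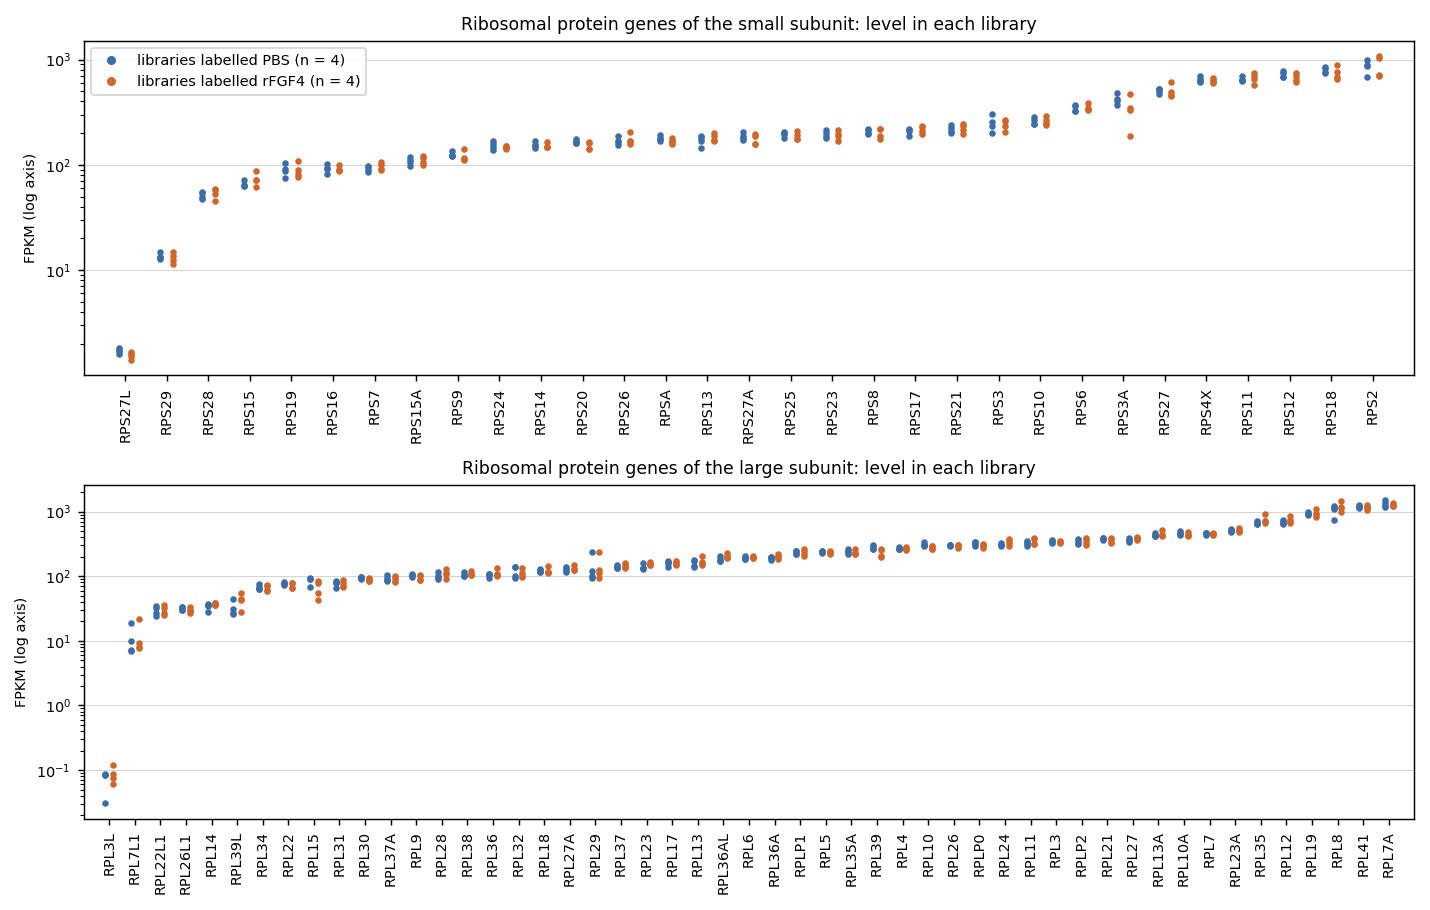
Level of each ribosomal protein gene in each library, in FPKM on a log axis, with genes ordered by their mean in the small subunit (top) and the large subunit (bottom). Blue points are the 4 libraries labelled PBS and orange points the 4 labelled rFGF4. The points of the groups overlap for each tested gene shown, most members lie above 100 FPKM, and the second copies RPS27L (1.63 FPKM) and RPL3L (0.0791 FPKM) lie far below. RPL10L, listed at 0 in all 8 libraries, is not drawn, and 82 members are shown.

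The comparison of rFGF4 with PBS called no ribosomal protein gene. Testing was limited to genes whose mean reached 1 FPKM, as 83 of the 85 members did; RPL3L and RPL10L did not. With edgeR's quasi-likelihood test, 0 of 83 passed an adjusted p of 0.05 in either direction, while 1157 of 11536 tested genes did, or 10.0% (5.49% higher and 4.54% lower). At an unadjusted p under 0.05 the count was also 0 of 83, against 25.1% of all tested genes. DESeq2 called 0 of 83 too, with 1 at an unadjusted p under 0.05, where it called 15.8% of all tested genes after adjustment and 26.7% before it. With the replicate number as a block, edgeR called 0 of 83 after adjustment and 8 before it, against 8.78% and 27.8% of all tested genes. In 0 of 83 members did the groups fail to overlap, which happened in 19.3% of all tested genes (10.1% higher and 9.26% lower). The smallest adjusted p among the members was 0.199, for RPL39. In bulk libraries such as these, fewer cells of a type and less RNA per cell cannot be told apart.

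The estimated changes were small and their intervals were mostly narrow. The median log2 fold change (rFGF4 over PBS) was 0.03 over the 83 members and 0.00 over all tested genes. It was 0.01 over the 32 small subunit genes and 0.04 over the 51 tested large subunit genes. The median standard error over the members was 0.09 on the log2 scale, and 0.11 over all tested genes. It was 0.08 over the 1932 other tested genes at a mean of at least 100 CPM. For 55 of the 83 members the 95% interval of the fold change, not adjusted for the number of genes, lay wholly within 1.25-fold either way. The same held for 28.9% of all tested genes, and for 940 of the 1932 others at a mean of at least 100 CPM. The estimate itself was past 1.25-fold in 2 members, RPL15 and RPL39L (2.41%, against 20.7% of all tested genes). RPL26, which sits at the end of the peptide exit tunnel, had the estimate closest to 0. It stood at 894, 912, 865 and 917 CPM (counts scaled to equal library size with TMM factors) in PBS replicates 1 to 4 and at 924, 898, 843 and 925 CPM in rFGF4 replicates 1 to 4. Its log2 fold change was 0.00 (SE 0.05), with an interval of 0.924 to 1.08 as a fold.

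**Figure D2:**
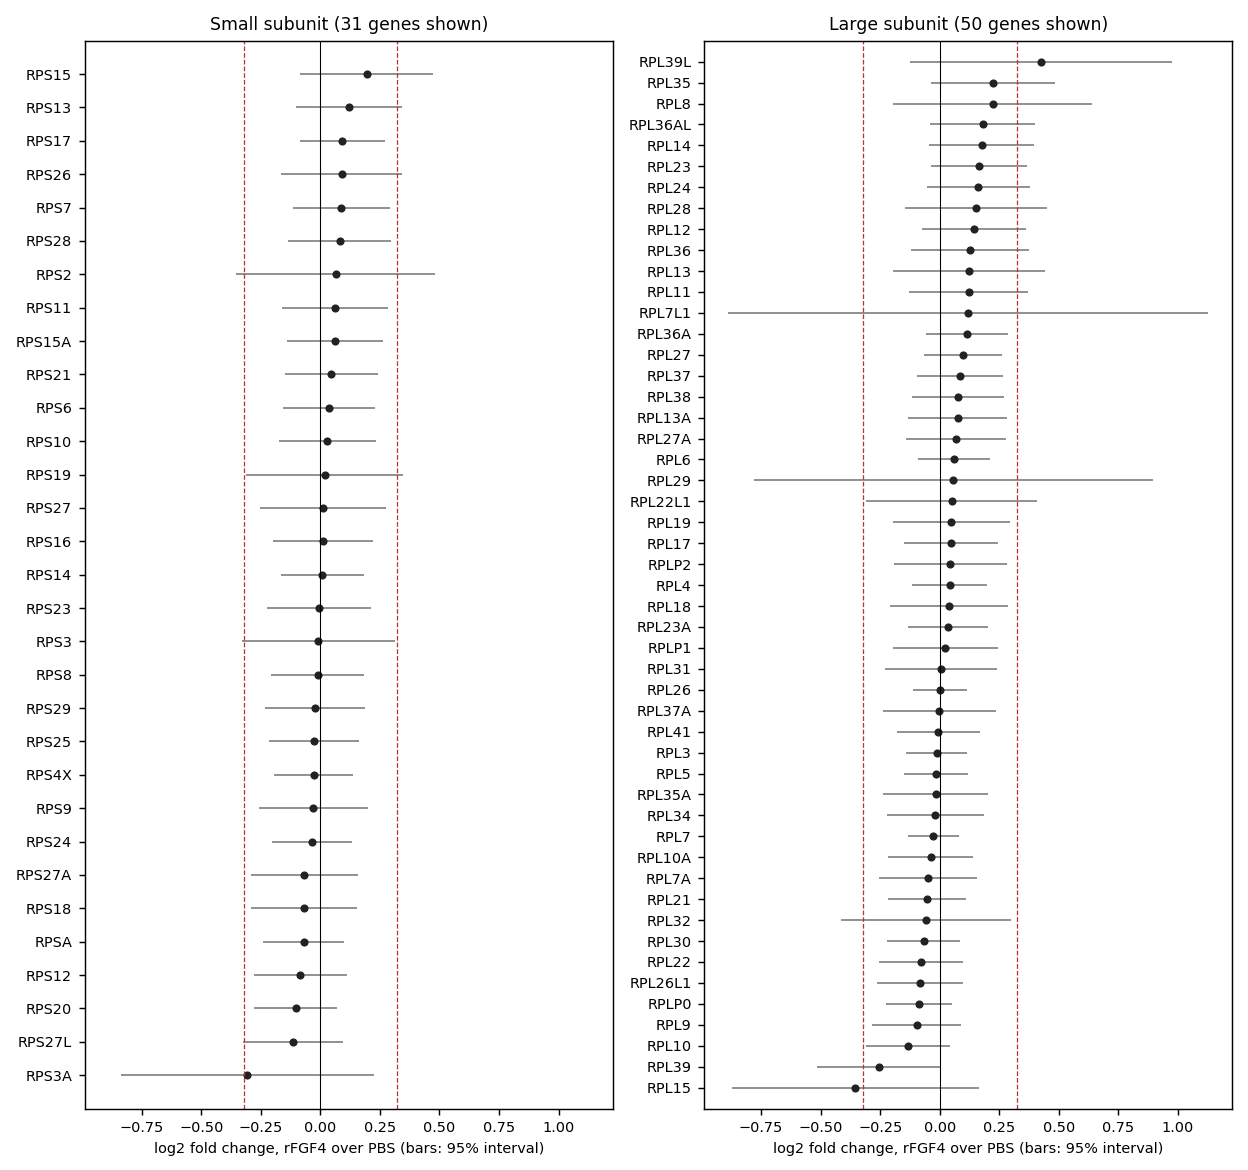
Log2 fold change (rFGF4 over PBS, edgeR) of 81 tested ribosomal protein genes, with the small subunit on the left and the large subunit on the right; bars are 95% intervals, not adjusted for the number of genes, and dashed lines mark 1.25-fold either way. Of the 81 intervals drawn, 55 lie between the dashed lines, and the widest belong to RPL7L1, RPL29, RPL39L, RPS3A and RPL15.

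Small subunit genes with roles on the path of the messenger RNA showed no called change. The groups of genes by place in the ribosome used from here on were formed from textbook roles after values were known, and they serve as description only. RPS6, the small subunit protein phosphorylated by the S6 kinases, stood at 1057, 1176, 1048 and 1224 CPM in PBS replicates 1 to 4 and at 1106, 1051, 1145 and 1313 CPM in the rFGF4 libraries. The 2 groups spanned nearly the same levels, with replicate 4 the highest of each, and the fold change was 1.02 (95% interval 0.896 to 1.17). RPS2, RPS3 and RPS23, at the messenger RNA entry and the decoding centre, had a median log2 fold change of -0.01. RPS2 was spread widely within both groups, from 1975 to 2891 CPM in PBS and from 1965 to 3263 CPM in rFGF4 libraries. RPSA, RPS14, RPS26 and RPS28, at the messenger RNA exit and platform, did not pass, with estimates from -0.07 to 0.09 on the log2 scale. RPSA, also known as the laminin receptor precursor, stood at 838 ± 56.3 CPM and 799 ± 65.5 CPM. The 40S beak genes RPS10, RPS12 and RPS27A had 0 of 3 past the threshold, and all 3 intervals lay within 1.25-fold. RPS18, often used as a reference gene in quantitative PCR, had a fold change of 0.953 (0.817 to 1.11), and RPS4X, the X-linked S4 protein, had 0.981 (0.873 to 1.10). RPS15, which contacts the decoding region, had the largest positive estimate of the small subunit. It stood at 158, 164, 163 and 185 CPM in PBS libraries and at 183, 156, 190 and 237 CPM in rFGF4 libraries, an estimate of 0.19 on the log2 scale (SE 0.12, adjusted p = 0.374 by edgeR). All 4 PBS values lay within the rFGF4 range.

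Among large subunit genes no member of the stalk or the 5S particle passed the threshold. The stalk recruits translation factors and is built of RPLP0, RPLP1, RPLP2 and RPL12, of which 0 of 4 passed. RPLP0, a common reference gene, stood at 1624, 1508, 1592 and 1400 CPM in PBS libraries and at 1430, 1457, 1507 and 1366 CPM in rFGF4 libraries, a fold change of 0.941 (0.854 to 1.04). RPLP1 had 1.02 (0.872 to 1.19), RPLP2 1.03 (0.875 to 1.21) and RPL12 1.10 (0.949 to 1.28). In contrast to most members, RPLP0 was lowest in replicate 4 of both groups. RPL5 and RPL11 form the 5S ribonucleoprotein, which, when not built into ribosomes, binds the ubiquitin ligase MDM2. RPL5 had a fold change of 0.988 (0.901 to 1.08) and RPL11 one of 1.09 (0.914 to 1.29). RPL13A, known also for silencing inflammatory transcripts after release from the ribosome and used as a reference gene, had 1.05 (0.912 to 1.22). Of the 16 genes mutated in Diamond-Blackfan anaemia that were listed here, among them RPS19 (1.01, 0.806 to 1.27), 0 passed and 11 intervals lay within 1.25-fold.

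The 8 listed genes of the peptide exit tunnel held both the smallest p of the set and one of its larger positive estimates. RPL39, a small protein lining the tunnel, lies on chromosome X from 119786504 to 119791630 on the minus strand, in coordinates as the table gives them (no source at hand names the build). It stood at 673, 743, 663 and 792 CPM in PBS libraries and at 511, 671, 534 and 685 CPM in rFGF4 libraries. The rFGF4 library was lower in each of the 4 numbered pairs, although the groups overlapped. That pattern held for 11 of 83 members (13.3%) and for 18.9% of all tested genes. The log2 fold change of RPL39 was -0.26 (SE 0.11, edgeR adjusted p = 0.199). RPL35, at the rim of the exit, stood at 1171, 1210, 1174 and 1325 CPM and at 1324, 1224, 1366 and 1786 CPM, an estimate of 0.22 on the log2 scale (SE 0.11, adjusted p = 0.27 by edgeR). Its highest value was in rFGF4 replicate 4, and PBS replicate 4 reached the level of rFGF4 replicate 1. RPL4, RPL17, RPL19, RPL23A, RPL26 and RPL31 had estimates between 0.00 and 0.05.

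The other members at the ends of the ranking did not pass either. RPL15, a core protein of the large subunit on chromosome 3 (23916545 to 23924374, plus strand), had the lowest estimate. It stood at 763, 586, 776 and 810 CPM in PBS libraries and at 475, 364, 689 and 767 CPM in rFGF4 libraries. The values of rFGF4 replicates 3 and 4 lay within the PBS range and those of replicates 1 and 2 below it. The log2 fold change was -0.35 (SE 0.23, edgeR adjusted p = 0.383). RPL10, at the tRNA-binding core, had -0.13 (SE 0.08, edgeR adjusted p = 0.335). RPL8, next to the peptidyl transferase centre, was lowest in PBS replicate 2 at 1897 CPM against 2828 to 3188 CPM in the rest of that group. In the rFGF4 libraries it ranged from 2514 to 4002 CPM, and the log2 fold change was 0.22 (SE 0.18, edgeR adjusted p = 0.51).

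In FPKM, second copies with a related symbol ranged from undetected to the level of the main gene. RPL36AL stood at 194 FPKM and RPL36A, which encodes a nearly identical protein, at 197 FPKM. In mean CPM, which is not divided by length, RPL36AL stood at 164 in PBS and 186 in rFGF4 libraries. RPL36A stood at 903 and 977 CPM there. No source at hand says how the counting divided reads between these genes. RPL36AL had 154, 165, 149 and 188 CPM in PBS libraries and 183, 174, 173 and 213 CPM in rFGF4 libraries, an estimate of 0.18 on the log2 scale (SE 0.10, adjusted p = 0.298 by edgeR), with overlapping groups. RPL22L1, which can take the place of RPL22, stood at 29.9 against 74.8 FPKM, and their fold changes were 1.04 (0.806 to 1.33) and 0.947 (0.838 to 1.07). RPL26L1 stood at 30.9 against 296 FPKM for RPL26, with a fold change of 0.945 (0.833 to 1.07). RPL7L1 stood at 11.1 against 454 FPKM for RPL7, and RPS27L at 1.63 against 504 FPKM for RPS27. In mean CPM of the PBS libraries, RPS27L stood at 18.1 and RPS27 at 627. RPS27L had the largest share of overlapping counts in the set, since LACTB, a gene on the opposite strand that overlaps it, held 73.9% as many counts. RPL3L, known from heart and skeletal muscle, was listed at 0.0306 to 0.121 FPKM, with 150 counts over all 8 libraries. RPL10L, known from testis, had 0 counts in all 8.

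RPL39L, the second copy of RPL39, had the largest positive estimate of the set. It stood at 37.3 FPKM against 257 FPKM for RPL39, and lies on chromosome 3 (187120948 to 187139496, minus strand). Its levels were 33.4, 32.1, 54.9 and 38.9 CPM in PBS libraries and 53, 34.0, 56.3 and 70.5 CPM in rFGF4 libraries. PBS replicate 3 lay with the higher rFGF4 libraries, and rFGF4 replicate 2 with the lower PBS libraries. The log2 fold change was 0.42 (SE 0.24, edgeR adjusted p = 0.323), the opposite sign to that of RPL39; the difference between the 2 changes was not tested.

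Members stood highest in replicate 4 of both groups, with small differences between the groups themselves. The median member lay 0.11 above its own 8-library mean in PBS replicate 4 and 0.19 above it in rFGF4 replicate 4 (log2 CPM). The median member in the other 6 libraries lay between -0.08 and 0.02. In rFGF4 replicate 4, 79 of 83 members were above their mean, and in PBS replicate 4 75 were. Replicate 4 was the highest PBS library for 63 of 83 members (31.0% of all tested genes) and the highest rFGF4 library for 73 (35.5%). It was the highest of both groups for 58 of 83 members, or 69.9%, against 18.6% of all tested genes. Among the genes at a mean of at least 100 CPM, members included, the share was 27.3%, and the median of the others lay at 0.01 and 0.02 in these libraries. Both subunits showed the shift, by 0.14 and 0.10 in PBS replicate 4 and by 0.19 and 0.20 in rFGF4 replicate 4 for the small and the large subunit. The summed share of the set was accordingly 7.93% and 8.15% in these 2 libraries and 7.16 to 7.37% in the other 6. Mitochondrially encoded transcripts held 12.9% of counts in rFGF4 replicate 4 and 10.7% in PBS replicate 4, with 9.15 to 11.7% in the other 6 libraries; their part in the shift was not tested. Without replicate 4 of both groups, 0 of 83 members passed and the median log2 fold change was -0.00. That median was -0.05 without rFGF4 replicate 4 alone and 0.07 without PBS replicate 4 alone.

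**Figure D3:**
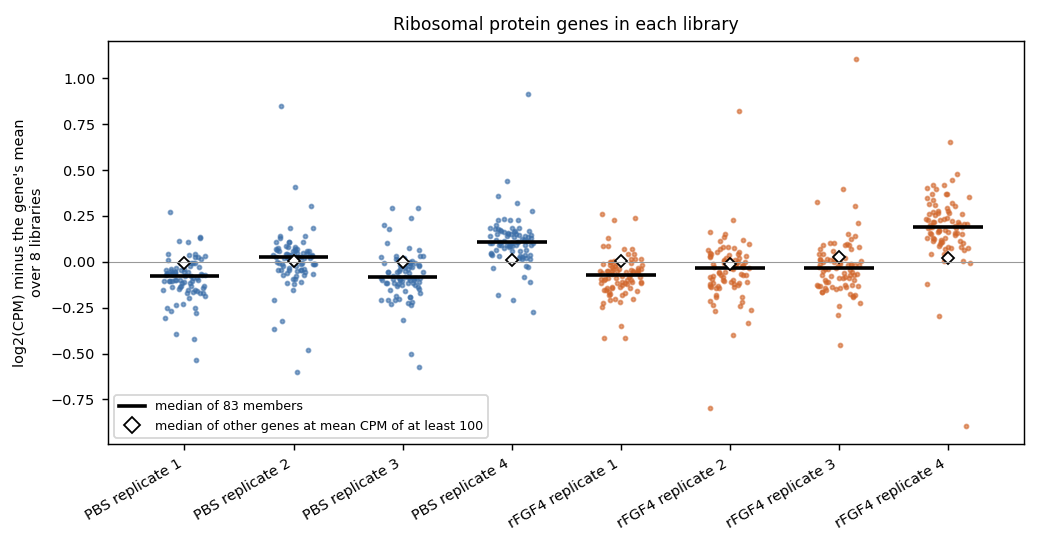
Each point is a tested ribosomal protein gene, placed by its log2 CPM in the library minus its mean over the 8 libraries; black bars are the median of the 83 genes, and white diamonds the median of other genes at a mean of at least 100 CPM. The bars stand at 0.11 in PBS replicate 4 and 0.19 in rFGF4 replicate 4, while the diamonds stay between -0.01 and 0.02 in all 8 libraries.

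A few members varied between libraries far more than the rest. The within-group SD of log2 CPM had a median of 0.14 over the members and 0.16 over all tested genes. Over the 1932 other tested genes at a mean of at least 100 CPM the median was lower than over the members, at 0.12. The SD was 0.70 for RPL7L1, 0.59 for RPL29, 0.40 for RPL39L, 0.39 for RPS3A and 0.38 for RPL15. RPL29, on chromosome 3 (51993522 to 51995942, minus strand), stood at 246, 583, 228 and 300 CPM in PBS libraries and at 278, 573, 236 and 324 CPM in rFGF4 libraries. Replicate 2 was the highest of both groups, and the values of equal replicate number lay close together. RPL7L1 stood at 66.0, 94.2, 64.2 and 180 CPM and at 71.7, 84.2, 206 and 77.8 CPM, so that 1 library of each group was high, under different numbers. RPS3A, a small subunit protein at the messenger RNA exit side, stood at 1082, 1330, 1136 and 1029 CPM in PBS libraries and at 909, 932, 1320 and 539 CPM in rFGF4 libraries. Its low value in rFGF4 replicate 4 was opposite to the high position of most members in that library. The pseudogene copies of RPS3A together held 126 CPM there and 84.0 to 106 CPM in the other 7 libraries. For RPL29, the 16 listed copies held 10.2 to 14.1 CPM in any library. Their part in these differences was not tested.

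**Figure D4:**
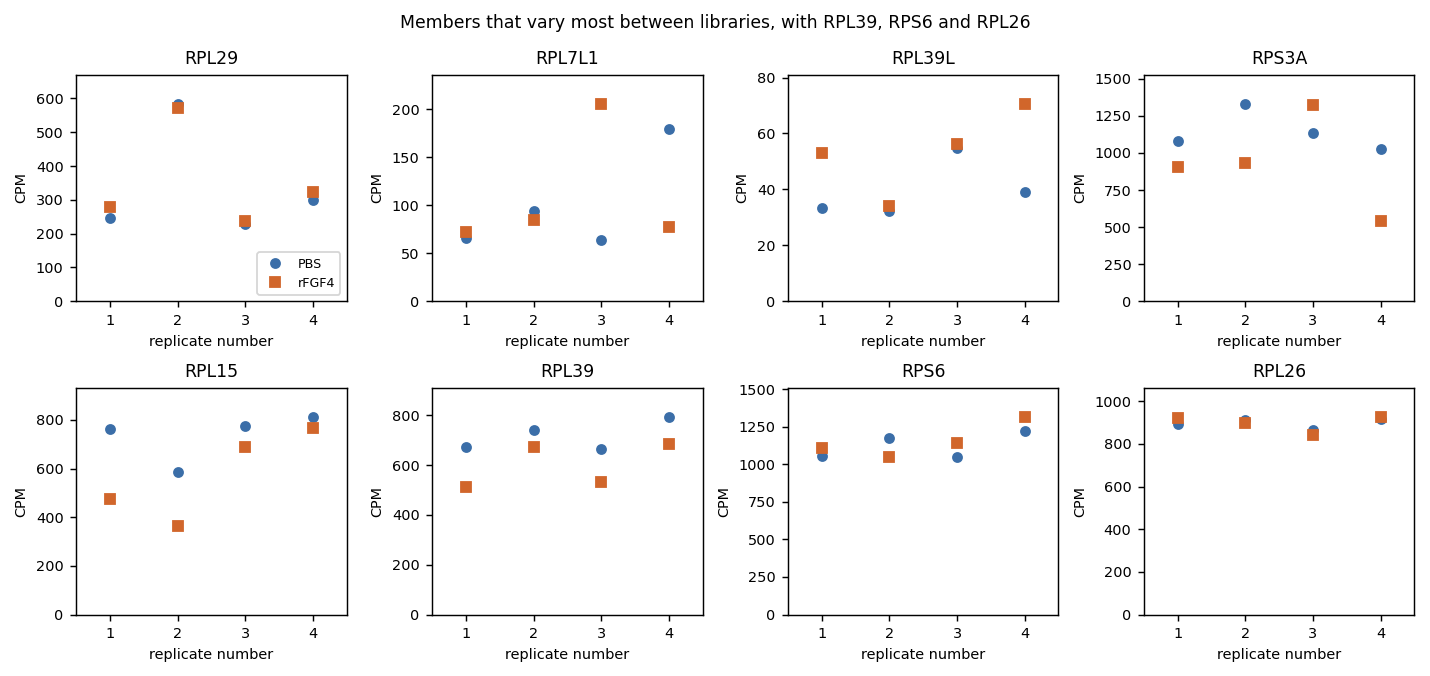
CPM of the 5 members with the largest spread within groups, with RPL39, RPS6 and RPL26 for comparison; the horizontal axis is the replicate number, blue circles are PBS libraries and orange squares rFGF4 libraries, and each vertical axis starts at 0. RPL29 is high in replicate 2 of both groups (583 and 573 CPM), RPL7L1 in PBS replicate 4 and rFGF4 replicate 3 (180 and 206 CPM), and RPS3A is low in rFGF4 replicate 4 (539 CPM).

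Ribosomal protein genes have many processed pseudogenes, and reads can be divided between a gene and its copies. The table listed 1142 rows named as copies of 77 of the members, of which 455 had a count. In all, these copies held 0.385 ± 0.0173% of counts in the PBS and 0.387 ± 0.0169% in the rFGF4 libraries. For 9 members they held at least 10% as many counts as the gene itself, among them RPS28 (55.7%), RPL7 (36.9%), RPSA (33.6%), RPS2 (24.7%), RPL21 (23.2%), RPS7 (22.9%), RPL9 (20.9%) and RPL10 (14.3%). The values of these 9 are uncertain to that extent. A gene overlapping on the opposite strand held at least 10% as many counts in 8 members: RPL6, RPL28, RPL30, RPL31, RPL36, RPS27L, RPS28 and RPS29. No source at hand gives the strand setting of the counting.

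Some of the copies passed the threshold. Of the 133 copies that were tested, 12 were higher and 1 was lower in the rFGF4 libraries (9.77%, against 10.0% of all tested genes). By direction, 5.49% of all tested genes were higher and 4.54% lower. The copies had a median log2 fold change of 0.19 and 101 positive estimates, while 5799 of the 11536 tested genes had a positive estimate. The count of higher copies was 2 to 5 without any 1 library other than rFGF4 replicate 2, where it was 13. It was 5 with the replicate number as a block, 7 and 2 with filters at 0.1 FPKM and at none, and 22 with DESeq2. RPSAP52, a transcript named as a copy of RPSA, rose from 1.31, 1.38, 1.49 and 2.16 CPM to 6.30, 7.20, 7.04 and 6.54 CPM, an estimate of 2.09 on the log2 scale (SE 0.17, adjusted p = 0.000472 by edgeR), while RPSA itself did not pass. RPL13AP7, a processed pseudogene, rose by 0.68 (SE 0.12, edgeR adjusted p = 0.0100), and RPL21P75 fell by 0.75 (SE 0.13, edgeR adjusted p = 0.00988). RPL21P75 stood at 90.5, 89.8, 112 and 102 CPM in PBS libraries and at 45.6, 66.1, 56.4 and 66.6 CPM in rFGF4 libraries, with no overlap. RPL21, the parent gene, was at -0.05 (SE 0.07). These 3 copies passed under all 21 alternative settings of the fit, and the other 10 failed in 9 to 15 of them.

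The remaining ribosome components and the genes coregulated through TOP tracts were mostly not called. FAU and RACK1 did not pass the threshold, with log2 fold changes of 0.01 and 0.19. Of 19 translation factors and partners, most of them TOP messenger RNAs, 1 was higher and 0 were lower, where 10.0% of all tested genes were called (5.49% higher). The median of these 19 was 0.04, and 0.01 without rFGF4 replicate 4. Without rFGF4 replicate 3, 0 of these 19 were called higher and 1 lower. EEF1A1, the elongation factor that delivers tRNA, stood at 9333 ± 372 CPM and 8620 ± 210 CPM and did not pass (log2 fold change -0.11, SE 0.05, edgeR adjusted p = 0.161). EEF2, the translocase, had 0.02 (SE 0.05). The gene that rose was NPM1, a nucleolar chaperone of ribosome assembly. It stood at 1461, 1426, 1398 and 1325 CPM in PBS libraries and at 1573, 1607, 1658 and 1671 CPM in rFGF4 libraries, an estimate of 0.21 on the log2 scale (SE 0.05, adjusted p = 0.0292 by edgeR). All 4 rFGF4 libraries lay above all 4 PBS libraries. The call was lost in 10 of 21 alternative settings, among them those leaving out PBS replicate 2, 3 or 4, or replicate 1 or 3 of rFGF4, and with the replicate number as a block (adjusted p = 0.0696).

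In the mTORC1 and S6 kinase list, 1 of 18 tested genes rose and 1 fell, a share near the 10.0% called over all tested genes. LARP1, which binds TOP messenger RNAs and represses their translation when mTORC1 is inactive, stood at 274, 256, 277 and 255 CPM in PBS libraries and at 324, 335, 331 and 300 CPM in rFGF4 libraries. The groups did not overlap, and the log2 fold change was 0.28 (SE 0.06, edgeR adjusted p = 0.0184). PDCD4, an inhibitor of the initiation helicase eIF4A that is degraded after phosphorylation by S6 kinase, stood at 69.4, 78.7, 65.4 and 68.9 CPM and at 45.1, 51.3, 55.1 and 45.7 CPM. It fell by 0.52 (SE 0.09, edgeR adjusted p = 0.00827). MTOR itself was at -0.00 (SE 0.09) on the log2 scale, and RPS6KB1 and RPS6KB2, the S6 kinase genes, had -0.10 and -0.03. The LARP1 call was lost in 7 of 21 alternative settings, among them those leaving out PBS replicate 2 or 4, or replicate 1 or 3 of rFGF4.

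In each of the 3 lists of chaperones, of ribosome ubiquitination and rescue, and of the nucleolar stress response, 1 gene was called. With 8 to 10 genes tested per list, this is near the 10.0% called over all tested genes, so the genes are given for their own values. GRWD1, a chaperone of newly made RPL3, rose from 60.8, 59.7, 65.1 and 70.0 CPM to 81.9, 79.2, 81.8 and 91.2 CPM (log2 fold change 0.39, SE 0.07, edgeR adjusted p = 0.013), the only one called among 8 chaperone genes. RPL3 had a fold change of 0.991 (0.906 to 1.08). The GRWD1 call was lost without PBS replicate 2, and 2 chaperone genes were called higher with DESeq2 or without rFGF4 replicate 3. ZNF598, the ubiquitin ligase that marks RPS10 and RPS20 on collided ribosomes, rose from 45.6, 44.8, 50.2 and 36.8 CPM to 65.1, 58.3, 63.5 and 64.7 CPM (log2 fold change 0.50, SE 0.10, edgeR adjusted p = 0.0134). It was the only one called among 10 genes of ribosome ubiquitination and rescue, and RPS10 was at 0.03 (SE 0.09). In that list 2 genes were higher without rFGF4 replicate 4. With DESeq2, scaling by library totals only or either limma fit, 1 was higher and 1 lower. In the list of the nucleolar stress response, BTG2 alone of 9 tested genes passed in the main fit. BTG2 fell from 29.2, 32.3, 26.4 and 28.8 CPM to 16.2, 15.7, 18.5 and 20.4 CPM (log2 fold change -0.72, SE 0.11, edgeR adjusted p = 0.00496). This list had 3 genes lower with DESeq2 or without rFGF4 replicate 4. It had 2 lower with scaling by library totals only or either limma fit. MDM2 had 0.03 (SE 0.08) and CDKN1A -0.37 (SE 0.10, edgeR adjusted p = 0.0578).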

How the data were processed

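The authors deposited 1 table with 2 values per library, FPKM (with 0.0001 in place of 0) and counts, per the file headers. HISAT2 2.0 and StringTie 1.3.0 are named in the submitters' processing notes, without a role; no source at hand gives the build, annotation or strand setting. The deposited counts were treated as estimated counts: all are whole, yet low values pile up at 4 (9781 entries, against 3485 at 3 and 1977 at 5). They were used as deposited. Rows on chromosome Y and those of XIST and TSIX (521 of 58825) did not enter any step. Genes whose mean reached 1 FPKM were tested with edgeR 4.0.16 in R 4.3.3 (TMM scaling, glmQLFit and glmQLFTest, two-sided, Benjamini-Hochberg adjustment over all 11536 genes, threshold 0.05). SEs and 95% intervals follow from the test statistic and its degrees of freedom. The fit was first tested on simulated data. CPM values are TMM-scaled.

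Alternatives were DESeq2 1.42.0, limma 3.58.1 on log2(FPKM + 1) and log2(FPKM + 0.1), 4 other scalings, 3 other filters, a replicate block and leaving out each library. Added outside the plan were leaving out replicate 4 of both groups, and the replicate block with TMM factors made without the members. The members, gene lists and tests were chosen with earlier results of these data known. Members named were any past the threshold; the 5 largest estimates in each direction; the 6 highest and 6 lowest levels; second copies with their partners; members with known other roles or used as reference genes (RPS6, RPL5, RPL11, RPSA, RPS3, RPL13A, RPLP0, RPLP1, RPLP2, RPS18, RPS19); the 5 with the largest spread within groups; and genes past the threshold in the related lists. Further members were named after their values were seen. Some genes are not reported here by name, 2 of them members; they stay in the fit and the counts.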

Additional observations from a re-analysis of the deposited data

Results flagged for a closer look

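Groups of 4 libraries were checked for a library apart from the rest in the named members, 74 groups in all, of which chance marks about 1 in 20. RPL7L1 stood at 206 CPM in rFGF4 replicate 3, with the other libraries of that group at 71.7 to 84.2 CPM. RPS27 stood at 797 CPM in rFGF4 replicate 4, with the others at 555 to 596 CPM.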

How the results depend on the processing

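With edgeR, limma and DESeq2, 0 members passed under all 21 alternative settings of the fit, with at most 8 at an unadjusted p under 0.05 (replicate block); the smallest adjusted p was 0.052, for RPL23 without replicate 4 of both groups, a setting chosen after seeing the data. Of 37 named members tested, 18 kept the sign of their estimate in all 21. Leaving out 1 library gave a members' median between -0.05 and 0.07 (log2) and 601 to 1166 genes called of all tested, against 1157; DESeq2 called 1828; the cause was not tested. Counting pseudogene copies raised the share of counts to 7.82% in the PBS and 7.84% in the rFGF4 libraries. For pairing by replicate number, deviations of same-numbered libraries correlated at -0.07 to 0.33 over all tested genes, over 0.1 in 3 of 4 pairs, and with a median of 0.18 against -0.04 for different numbers. Over all tested genes, 6 of 8 libraries correlated best with their own number. Over the members alone, same-numbered libraries correlated at -0.02 to 0.76, highest for replicate 2. The median there was 0.14, against -0.18 for different numbers. Deviations were taken from each group's mean, so the values for same and different numbers are not independent. These correlations are a hint from the data of something shared by number, which the labels do not state. The pairing was not used since 1 pair was below 0.1 over all tested genes. The replicate block called 1013 genes and 0 members (median 0.03). RPL3L (150 counts in all) and RPL10L (0 counts) were too low to be tested.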

Other observations

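The mitochondrial ribosome is built from a separate set of nuclear genes. Of 78 such genes tested, 4 rose and 0 fell in the rFGF4 libraries (10.0% of all tested genes were called), with a median log2 fold change of 0.12 and 61 positive estimates. That median was 0.02 without rFGF4 replicate 4 and 0.04 without replicate 4 of both groups. The number called was 2 to 4 when any 1 library was left out. MRPL36 rose from 43.9, 46.6, 46.2 and 48.8 CPM to 59.8, 57.6, 58.8 and 71.6 CPM (log2 fold change 0.42, SE 0.08, edgeR adjusted p = 0.0145), and this call was lost without PBS replicate 2. MRPL32, MRPS17 and MRPS34 rose by 0.25, 0.35 and 0.59. MRPS34 stood at 72.4 CPM in rFGF4 replicate 3 and at 104 to 119 CPM in the rest of that group. The calls for MRPL32, MRPS17 and MRPS34 were lost in 1, 7 and 13 of 21 alternative settings. Whether these genes differ from the cytosolic set was not tested.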
